A study of Mus musculus with 21 samples.

Results

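Tumor inflammatory monocytes (TIMs) sorted from lymph node metastases were compared with TIMs sorted from the primary lung tumors of the same mouse model. The comparison took 10 of the 21 libraries of the series, 5 from lymph nodes and 5 from primary tumors, chosen by the tissue named in their sample labels. Both groups came from FVB mice that received 500000 KAL-LN2-E1 cells (LN2E1) each into the lung, and neither carried any other treatment or engineered allele in the labels. LN2E1 is a lung squamous cell carcinoma line derived from KAL cells by passage in mice, and the study used animals of both sexes aged 8 to 15 weeks without giving the sex or age behind each library. The 3 libraries of bone marrow inflammatory monocytes (BM IMs) from FVB mice without tumors are given beside them as a description only. The replicates are called technical in the study's methods and nothing states that they came from separate mice, so that the p-values measure the spread between these samples. The replicate numbers of the groups did not mark pairs. Tumor-bearing lung was minced and digested with enzymes before sorting, and whether lymph nodes went through the same digestion is not given in the sources used here.

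Inflammatory monocytes leave the marrow through the receptor Ccr2, enter inflamed tissue and tumors, and there take on macrophage, antigen-presenting or tissue-remodelling programs. Classical, Ly6C-high monocytes can also turn into non-classical monocytes, which patrol vessels and depend on the nuclear receptor Nr4a1. Interferons raise a large set of genes in monocytes, among them antiviral sensors and the machinery that loads peptides on MHC molecules, whereas immediate early genes such as Fos and Egr1 respond within minutes to growth factors, stress and tissue handling. In bulk RNA of sorted cells, fewer cells of a type and less RNA per cell cannot be told apart.

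The libraries held 80772922 to 95628109 counts each in lymph node TIMs and 87268067 to 95041694 in primary tumor TIMs, and 0 counts in a library allowed up to 0.0397 CPM (counts scaled to library size with TMM factors), a limit for counting error only. Fewer genes were seen in lymph node TIMs, where 11047 to 12828 genes had at least 10 counts against 13616 to 14512 in primary tumor TIMs (two-sided exact permutation test, p = 0.00794, the smallest p that 5 libraries against 5 allow). The lymph node libraries also varied more, with a coefficient of variation beyond counting error of 76.4% against 30.3% and a median correlation of log2 CPM between libraries of 0.921 against 0.970. Lymph node replicate 1 stood apart from the other 4, with correlations of 0.876 to 0.888 to them, and it held 548 CPM of mast cell and basophil transcripts against 95.6 to 157.9 in the others. No library was left out. The markers that the sort selected for were present in every library. Ptprc (CD45) stood at 1822 to 3012 CPM in lymph node and 1800.4 to 2071 CPM in primary tumor TIMs, Itgam (CD11b) at 804 to 1363 and 1248 to 1604 CPM, and Ly6c2 (Ly6C) at 974 to 1676 and 1103 to 1389.9 CPM. None of the 6 sort markers measured passed the test of a difference, but without lymph node replicate 1 Ptprc was higher (log2 fold change 0.38, adjusted p = 0.029 from edgeR). Siglec5, the symbol used for Siglec-F, which the sort excluded, lay wholly below in lymph node libraries. Its log2 fold change of -3.15 did not pass (standard error 1.37, adjusted p = 0.174 from edgeR). Of the 6, 1 was lower with all 5 groups of the series in 1 fit, and 1 lower and 1 higher with limma's voom and library weights.

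**Figure D1:**
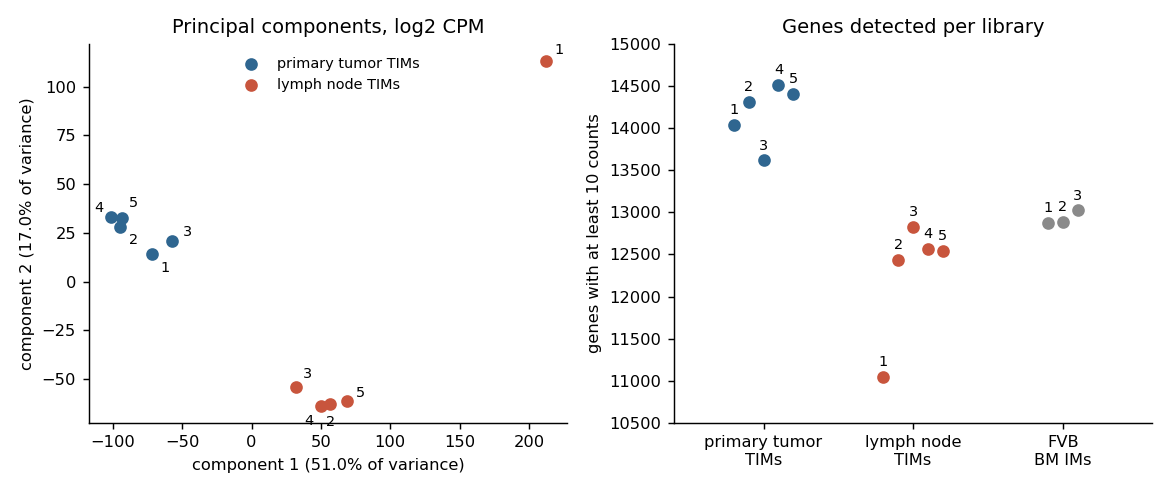
The left panel plots the first and second principal components of log2 CPM over the 10 TIM libraries (51.0% and 17.0% of the variance), and the right panel the number of genes with at least 10 counts in each TIM and FVB BM IM library, with the replicate number beside each point. Lymph node replicate 1 lies far from the other libraries in the left panel, and in the right panel all 5 lymph node libraries lie below every primary tumor library.

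Across all genes, many small rises in lymph node TIMs stood against larger falls. Of the 13488 genes tested, 829 (6.15%) were higher and 749 (5.55%) lower in lymph node TIMs at an adjusted p under 0.05, the rule by which a gene is called higher or lower below. The median log2 fold change, lymph node over primary tumor, was 0.55 over the higher genes and -3.09 over the lower genes, and only 1 gene rose by more than 3 on this scale against 378 that fell by more. The falls included 353 genes that averaged under 1 CPM in lymph node TIMs, and 206 genes with at most 3 counts in every lymph node library, which entered the test through the primary tumor alone and therefore had to differ. Among genes at 10 CPM or more in lymph node TIMs, 808 rose with a median of 0.54 and 261 fell with a median of -0.64. This cut used the lymph node level alone, which favours rises and drops large falls, so that it does not compare the directions evenly. By the primary tumor level, 346 of the 749 lower genes averaged under 10 CPM. The median over all genes was -0.03. The 5 lymph node libraries lay wholly above the 5 primary tumor libraries for 757 genes (5.61%) and wholly below them for 1192 (8.84%). With the stricter rule of the study (a change of more than 1 on the log2 scale at an adjusted p under 0.0001), 4 genes (0.0297%) were DEGs, all lower, and 0 (0.0%) were higher, although 147 genes had an unadjusted p under 0.05 and rose by more than 1. DESeq2 with shrunken fold changes called 269 DEGs, 35 higher and 234 lower.

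These counts moved when a library was left out. The excess of higher over lower genes was lost in all 10 fits with a library left out, where 44.0% to 47.7% of the called genes were higher, against 52.5% with all libraries. Its loss was thus not tied to any particular library. Those fits also tested more genes, 13589 to 13935 against 13488, and the part of this in the loss was not tested. Without primary tumor replicate 1, 2, 4 or 5, 536, 492, 411 and 482 genes were higher, and without lymph node replicate 1 or 3, 1225 and 1186 were lower. Without primary tumor replicate 4, 478 genes were lower. The number of DEGs lay between 0, without lymph node replicate 3, and 2. Of the 146 genes called among those covered by the rule for names, 140 were called without lymph node replicate 1 and 103 in each of the 10 fits with a library left out. Where a gene given with its values was lost, this is stated beside it.

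**Figure D2:**
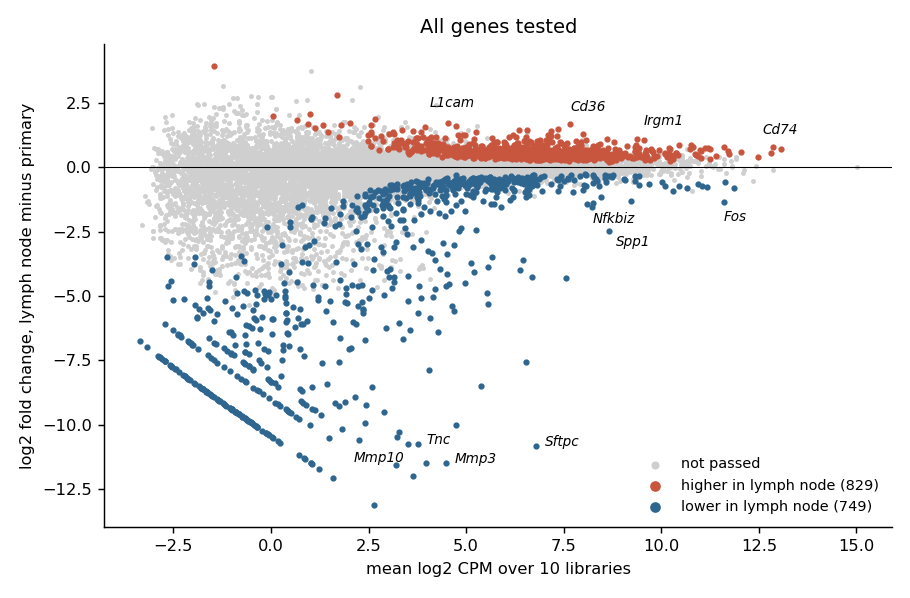
Each point is a tested gene, with the mean log2 CPM over the 10 libraries on the horizontal axis and the log2 fold change of lymph node over primary tumor TIMs on the vertical axis; colours mark genes called higher (829) and lower (749) at an adjusted p under 0.05. The large falls sit at low mean levels, and the rises are small and sit at middle and high levels.

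Interferon-responsive genes were among the rises. In a list of 22 type I interferon response genes, 8 were higher and 0 lower, and in a list of 20 interferon gamma response genes 8 were higher and 0 lower, beside 6.15% and 5.55% of all genes tested. The medians of the lists were 0.58 and 0.45. The type I list rested on single libraries, with 5 higher genes without primary tumor replicate 1, 4 or 5 and 13 without replicate 2. The interferon gamma list held 6 to 12.

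A motif bound by interferon-activated factors was common in the promoters of both lists. The interferon-stimulated response element was searched on both strands as GAAA followed, after any 2 bases, by another GAAA, in windows from 250 bases before to 50 bases after the start, taken from RefSeq; 9 of 17 type I list genes (52.9%) and 10 of 13 interferon gamma list genes (76.9%) with a window held it, beside 3.99% of all 27025 genes with a window, 7.44% of the called higher genes and 3.77% of the called lower genes. The lists name textbook interferon genes, so that this share describes the lists and not the comparison. A match describes letters and is not evidence of binding. The 120 bases before the start are shown for 4 of the called genes, 2 from each list, with the matches in capitals (overlapping matches run together), 5′ to 3′ on the strand of the gene in the RefSeq annotation of GRCm38.p6. They are Oas1a (chr5:120907526-120907645, minus strand), Isg15 (chr4:156200819-156200938, minus strand), Socs1 (chr16:10785537-10785656, minus strand) and Irgm2 (chr11:58214857-58214976, plus strand).
Oas1a: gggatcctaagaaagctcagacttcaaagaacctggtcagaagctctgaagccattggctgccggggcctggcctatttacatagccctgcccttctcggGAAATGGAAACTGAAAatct
Isg15: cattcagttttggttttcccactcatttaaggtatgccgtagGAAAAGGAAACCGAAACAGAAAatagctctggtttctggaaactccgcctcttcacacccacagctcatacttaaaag
Socs1: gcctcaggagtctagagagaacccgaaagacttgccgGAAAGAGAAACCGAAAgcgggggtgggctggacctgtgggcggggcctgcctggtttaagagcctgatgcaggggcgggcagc
Irgm2: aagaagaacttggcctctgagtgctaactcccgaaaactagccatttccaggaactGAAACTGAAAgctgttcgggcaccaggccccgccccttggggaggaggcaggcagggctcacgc

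Sensors and effectors of the antiviral response were higher. Oas1a, which makes the second messenger that activates RNase L, stood at 432, 435, 339, 477 and 475 CPM in lymph node replicates 1 to 5 and at 266, 299.9, 269, 287 and 290.2 CPM in primary tumor replicates 1 to 5. All lymph node libraries lay above all primary tumor libraries, and the log2 fold change was 0.62 ± 0.10 (standard error, as for the other values below); edgeR's quasi-likelihood test gave an adjusted p of 0.00319. Ifih1, the cytosolic sensor of long double-stranded RNA also known as MDA5, rose from 10.98 ± 2.07 CPM (SD, n = 5, as for the other means below) to 23.1 ± 5.31 CPM, again without overlap (log2 fold change 1.08 ± 0.19, adjusted p = 0.00517). Irf7, the transcription factor that amplifies type I interferon production, stood at 942, 1285, 884, 1288 and 1130.4 CPM in lymph nodes and 664, 800.4, 652, 691 and 612 CPM in primary tumors (log2 fold change 0.70 ± 0.12, adjusted p = 0.00493). Its exons overlap those of Phrf1 on the other strand, and the reads carried no strand. Isg15, a ubiquitin-like modifier, rose by 0.74 ± 0.15 (adjusted p = 0.00833), with overlap between the groups, and Rtp4 rose by 0.83 ± 0.15 without it (adjusted p = 0.00581). FVB BM IMs were lower still, at 30.4 to 42.5 CPM for Oas1a and 74.1 to 109 CPM for Irf7.

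The immunity-related GTPase Irgm1, which acts in the defence of phagocytes against intracellular microbes, had the smallest p of the interferon gamma list. It stood at 1139.8, 1016, 905, 1212 and 1029 CPM in lymph node libraries and 435, 559, 473, 546 and 556 CPM in primary tumor libraries (log2 fold change 1.06 ± 0.11, adjusted p = 0.000349). Irgm1 lies on chromosome 11, 48861968 to 48871683 of GRCm38 (mm10). Irgm2, a related GTPase, rose by 0.51 ± 0.12 (adjusted p = 0.0164), but not with all 5 groups of the series in 1 fit (adjusted p = 0.084). Irf1, the factor that drives much of the interferon gamma program, rose from 955 ± 99.0 CPM to 1558 ± 98.3 CPM (log2 fold change 0.72 ± 0.09, adjusted p = 0.00073), where part of the reads could come from the antisense gene Gm17334. Socs1, the feedback inhibitor of interferon receptors, stood at 118, 138, 90.7, 126 and 152 CPM in lymph nodes and 51.0, 63.1, 72.2, 56.1 and 71.9 CPM in primary tumors and rose by 0.999 ± 0.15 (adjusted p = 0.00229). Cd274, which encodes PD-L1, stood at 436, 495, 428, 668 and 559 CPM in lymph nodes and 336, 303, 333, 311 and 283 CPM in primary tumors and rose by 0.73 ± 0.12 (adjusted p = 0.00408). For Irgm1, Irf1, Socs1 and Cd274 no lymph node library overlapped a primary tumor library, and each was called in all 10 fits with a library left out. Cd274 lies on chromosome 19, 29367455 to 29388095.

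MHC genes rose in part. The 15 MHC class I genes, which hold heavy chains, the peptide transporter and immunoproteasome subunits, summed to 20044 to 21243 CPM in lymph node and 14994 to 16945 CPM in primary tumor libraries without overlap. Of 13 tested, 6 (46.2%) were higher and 0 lower, beside 6.15% and 5.55% of all genes tested. Without primary tumor replicate 4 or 5, 3 were higher. H2-K1, a classical heavy chain, rose from 2429.5 ± 182 CPM to 3274 ± 141 CPM (log2 fold change 0.44 ± 0.08, adjusted p = 0.00408), and the immunoproteasome subunit Psmb8 from 752 ± 39.7 CPM to 1109.5 ± 139 CPM (log2 fold change 0.57 ± 0.09, adjusted p = 0.00367). H2-D1 rose by 0.39 ± 0.10 (adjusted p = 0.0224), but not without primary tumor replicate 2, 4 or 5. Class I heavy chain genes are near copies of each other, so that reads may be split between them. Of 11 MHC class II genes, 3 (27.3%) were higher and 0 lower, beside the same shares of all genes tested. H2-Aa stood at 2568, 2144, 1891, 2098 and 2376 CPM in lymph nodes and 1705, 1434, 984, 1407 and 1233 CPM in primary tumors and rose by 0.72 ± 0.14 (adjusted p = 0.00732). Cd74, the invariant chain that escorts class II molecules, rose by 0.78 ± 0.16 (adjusted p = 0.0109), and H2-Ab1 by 0.61 ± 0.16 (adjusted p = 0.0325), the last in only 3 of 10 fits with a library left out. Ciita, the master regulator of class II transcription, had a log2 fold change of -0.47 ± 0.18 and did not pass (adjusted p = 0.111).

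**Figure D3:**
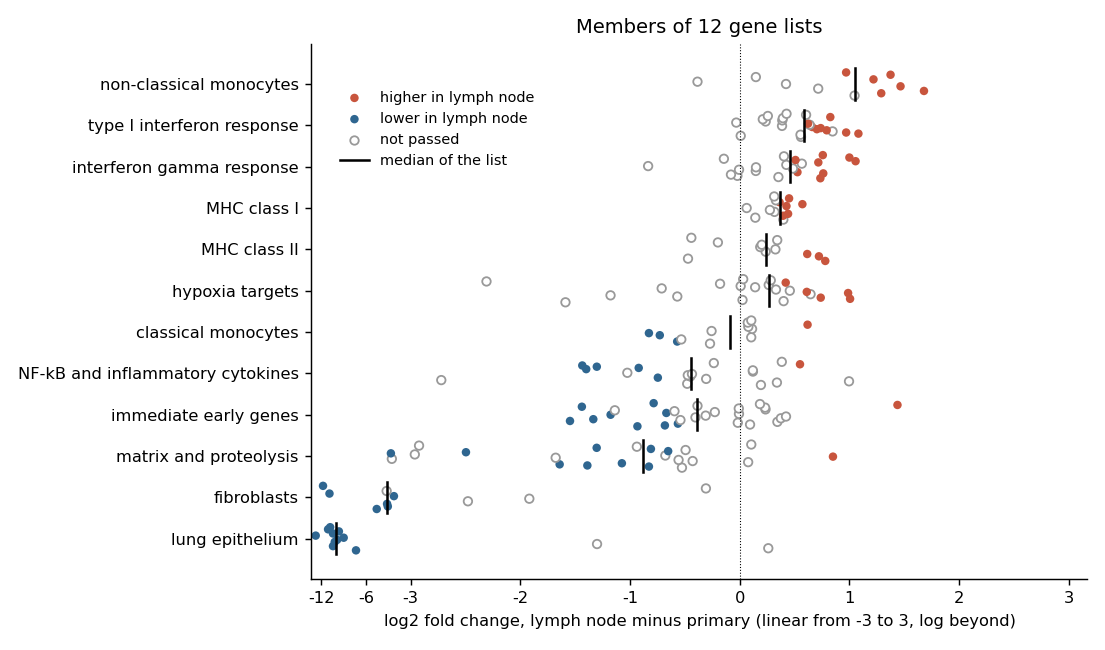
Each point is a tested member of 1 of 12 gene lists, placed by its log2 fold change of lymph node over primary tumor TIMs on an axis that is linear from -3 to 3 and logarithmic beyond; filled points passed the test, open points did not, and a black line marks the median of the list. The upper 6 lists, from non-classical monocytes (median 1.05) to hypoxia targets, hold no point called lower, and fibroblasts and lung epithelium none called higher. The 4 lists between them, from classical monocytes to matrix and proteolysis, hold 1 point each called higher beside those called lower.

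Most genes that mark non-classical monocytes were higher in lymph node TIMs. Of 11 such genes, 6 (54.5%) were higher and 0 lower, beside 6.15% and 5.55% of all genes tested. The median log2 fold change was 1.05, and the fits that left out a library gave 6 to 8 higher genes. Cd36, a scavenger receptor for oxidised lipids, stood at 216, 379.9, 372, 393 and 265 CPM in lymph nodes and 142, 120.1, 66.3, 70.1 and 113 CPM in primary tumors and rose by 1.68 ± 0.24 (adjusted p = 0.00196). Pglyrp1, a peptidoglycan recognition protein, rose from 91.0 ± 19.6 CPM to 210.3 ± 29.7 CPM (log2 fold change 1.22 ± 0.15, adjusted p = 0.000815). Treml4, a receptor that sensitises cells to RNA sensing by Tlr7, stood at 485, 633, 703, 631 and 620.4 CPM in lymph nodes and 433, 284, 269.8, 259.7 and 334 CPM in primary tumors and rose by 0.97 ± 0.15 (adjusted p = 0.0028). Spn (CD43), the surface protein most used to gate these cells, rose by 1.37 ± 0.23 (adjusted p = 0.00362), and Eno3 by 1.47 ± 0.23 (adjusted p = 0.00328). Cd300e rose by 1.29 ± 0.22 (adjusted p = 0.0042), but not with all 5 groups in 1 fit (adjusted p = 0.11). All 6 lay wholly above in lymph node libraries, beside 5.61% of all genes tested. The other 5, among them the defining gene Nr4a1 (-0.39 ± 0.21, adjusted p = 0.288) and Cx3cr1 (0.71 ± 0.25, adjusted p = 0.0872), did not pass. Fcgr4, the activating Fc receptor found on non-classical monocytes and macrophages, rose by 0.71 ± 0.12 (adjusted p = 0.00362). Cd36 lies on chromosome 5, 17781690 to 17888801.

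Classical monocyte genes did not move as a group. Of 12, 1 (8.33%) was higher and 3 (25.0%) lower, beside 6.15% and 5.55% of all genes tested. Ccr2, the receptor for exit from the marrow, stood at 1100.4, 864, 745, 1075 and 877 CPM in lymph nodes and 1002, 982, 1241, 1248 and 1191 CPM in primary tumors, with a log2 fold change of -0.27 ± 0.12 that did not pass (adjusted p = 0.195). Ly6c2, the antigen of the sort, had a log2 fold change of 0.11 ± 0.15 (adjusted p = 0.684). F13a1, the coagulation factor subunit made by monocytes, fell from 2786 ± 353 CPM to 1668 ± 321 CPM (log2 fold change -0.73 ± 0.14, adjusted p = 0.0075), and Fn1, fibronectin, by 0.83 ± 0.16 on the log2 scale (adjusted p = 0.00626). Cd177 fell in only 4 of 10 fits with a library left out. Plac8 rose by 0.62 ± 0.14 (adjusted p = 0.0179), with overlap between the groups and not without primary tumor replicate 4 or 5.

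A group of immediate early genes was lower in lymph node TIMs. Of 27 tested, 9 (33.3%) were lower and 1 (3.7%) higher, beside 5.55% and 6.15% of all genes tested. Without any 1 library, 8 to 10 were lower. Their summed level was 13935 to 19582 CPM in lymph node and 24504 to 29108 CPM in primary tumor libraries, with no overlap, and 11698 to 17947 CPM in BM IMs. Fos, a subunit of the AP-1 factor, stood at 1995, 1918, 1477, 1846 and 2026 CPM in lymph nodes and 5712, 4915, 4043, 4514 and 4344 CPM in primary tumors (log2 fold change -1.33 ± 0.12, adjusted p = 0.000167). Egr1, a zinc finger factor induced by growth factor signals, fell from 471 ± 134 CPM to 159.9 ± 27.0 CPM (log2 fold change -1.55 ± 0.20, adjusted p = 0.000976). Atf3, a stress-induced factor, stood at 921, 916, 794, 935 and 1004 CPM in lymph nodes and 1989, 1864, 1391, 1629 and 1911 CPM in primary tumors and changed by -0.93 ± 0.11 (adjusted p = 0.000631). Btg2, an antiproliferative gene, fell from 889.7 ± 43.7 CPM to 551 ± 60.2 CPM (log2 fold change -0.68 ± 0.09, adjusted p = 0.000942). These 4 genes lay wholly below in lymph node libraries, beside 8.84% of all genes tested, and were called in all 10 fits with a library left out. Jun changed by -0.67 ± 0.16 (adjusted p = 0.0234), with overlap, and was lost without primary tumor replicate 1 or 2 and with all 5 groups in 1 fit (adjusted p = 0.1). Fosb did not pass (log2 fold change 0.37 ± 0.32, adjusted p = 0.515). Fos was not low in BM IMs, which held 4654 to 7300.0 CPM of it. Fos lies on chromosome 12, 85473890 to 85477273.

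Nr4a2 went the other way. This orphan nuclear receptor stood at 179, 105, 87.5, 106 and 150.2 CPM in lymph nodes and 40.2, 41.7, 62.7, 44.7 and 43.8 CPM in primary tumors and rose by 1.44 ± 0.20 (adjusted p = 0.00178), and primary tumor replicate 3 was the highest of its group.

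**Figure D4:**
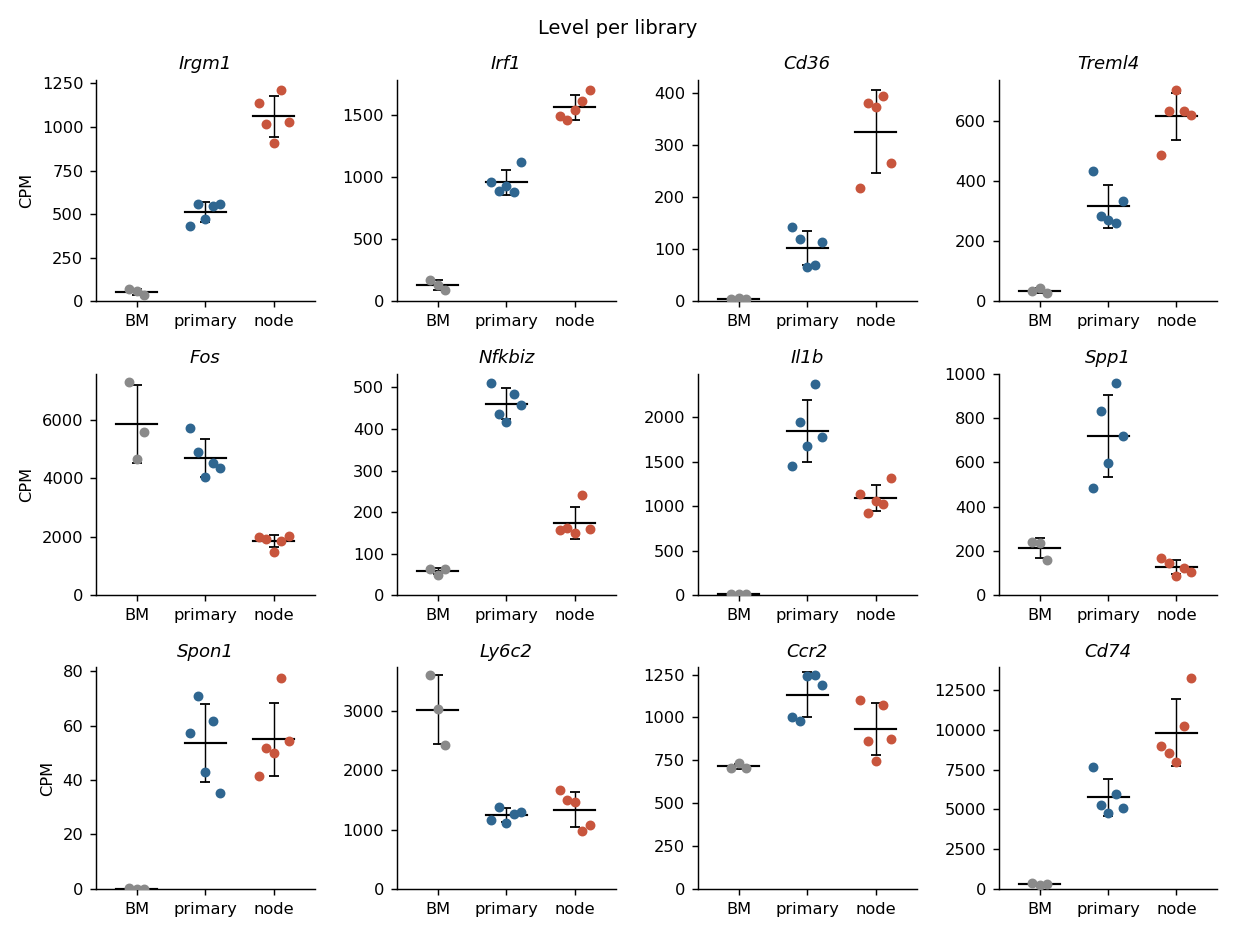
Each panel plots the CPM of 1 gene in every library on a linear axis from 0, for FVB BM IMs (n = 3), primary tumor TIMs (n = 5) and lymph node TIMs (n = 5), with the mean as a horizontal line and the SD as error bars. Irgm1, Irf1, Cd36, Treml4 and Cd74 lie higher in lymph node TIMs without overlap, Fos, Nfkbiz, Il1b and Spp1 lie lower without overlap, and Spon1, Ly6c2 and Ccr2 overlap.

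Several inflammatory mediators fell with them. Of 20 NF-kB and inflammatory cytokine genes tested, 5 (25.0%) were lower and 1 (5.0%) higher, beside 5.55% and 6.15% of all genes tested. Nfkbiz, which encodes the nuclear IkB-zeta that switches on secondary response genes, stood at 157, 163, 149.6, 240.2 and 159 CPM in lymph nodes and 510.5, 437, 417, 484 and 458 CPM in primary tumors (log2 fold change -1.40 ± 0.13, adjusted p = 0.000282). Ptgs2, the inducible cyclooxygenase, fell from 421 ± 75.3 CPM to 155 ± 45.6 CPM (log2 fold change -1.44 ± 0.21, adjusted p = 0.00194), and the cytokine Osm (oncostatin M) from 897 ± 166 CPM to 361 ± 94.2 CPM (log2 fold change -1.30 ± 0.19, adjusted p = 0.00211). All 3 were called with every library left out in turn. Il1b, the secreted inflammasome product, stood at 1139, 923, 1058, 1026 and 1322 CPM in lymph nodes and 1456, 1952, 1677, 2376 and 1774 CPM in primary tumors and changed by -0.75 ± 0.14 (adjusted p = 0.00578), but not with all 5 groups in 1 fit (adjusted p = 0.105), and its exons overlap those of the antisense gene Il1bos. Tnf rose by 0.55 ± 0.11 (adjusted p = 0.00855), so that the list did not move in one direction. Cebpd, a factor induced in inflammation, fell by 0.86 ± 0.08 on the log2 scale (adjusted p = 0.000282). Nfkbiz lies on chromosome 16, 55811375 to 55838899 and Ptgs2 on chromosome 1, 150100031 to 150108227.

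Among chemokines, 2 of 12 CXC genes (16.7%) and 3 of 13 CC genes (23.1%) were lower and none was higher, beside 5.55% lower over all genes tested. The CXC count was 1 without primary tumor replicate 4 and 4 without lymph node replicate 1, 3 or 5. One of the CC genes, Ccl11, had 0 counts in every lymph node library and entered the test through the primary tumor alone. Cxcl1, which attracts neutrophils through Cxcr2, fell by 1.69 ± 0.38 on the log2 scale (adjusted p = 0.0153), with overlap. Ccl3, which attracts monocytes and other leukocytes, fell from 128 ± 7.81 CPM to 77.6 ± 19.4 CPM (log2 fold change -0.71 ± 0.15, adjusted p = 0.0134), and the related Ccl4 was called in only 2 of 10 fits with a library left out.

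Several matrix and proteolysis genes were lower in lymph node TIMs. Of 22, 9 (40.9%) were lower and 1 (4.55%) higher, beside 5.55% and 6.15% of all genes tested. The median log2 fold change was -0.88, and 7 to 12 were lower without any 1 library. Their summed level was 9053 to 12601 CPM in lymph node and 14073 to 18132 CPM in primary tumor libraries. Spp1 (osteopontin), a secreted adhesion protein made by tumor macrophages, stood at 167, 147, 88.5, 124 and 106 CPM in lymph nodes and 485, 830.5, 597, 957 and 720.1 CPM in primary tumors (log2 fold change -2.50 ± 0.22, adjusted p = 0.000167). BM IMs held 159 to 242 CPM of it. Tgfbi, a matrix protein induced by TGF-beta, fell from 2552 ± 322 CPM to 1612 ± 203 CPM (log2 fold change -0.65 ± 0.11, adjusted p = 0.00453), with lymph node replicate 5 the highest of its group. Mmp14, a membrane-bound matrix protease, and its inhibitor Timp1 changed by -1.07 ± 0.17 and -1.30 ± 0.21 (adjusted p = 0.00325 and 0.00362), but neither with all 5 groups in 1 fit (adjusted p = 0.182 and 0.0817). The exception was Plaur, the urokinase receptor, which rose by 0.85 ± 0.16 with overlap (adjusted p = 0.00618). Cd63, a tetraspanin of lysosomes and exosomes, fell from 67.4 ± 23.4 CPM to 12.4 ± 4.24 CPM (log2 fold change -2.44 ± 0.30, adjusted p = 0.000854). Spp1 lies on chromosome 5, 104435118 to 104441050.

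The 4 DEGs were the matrix glycoprotein Tnc (tenascin C), the stromelysins Mmp3 and Mmp10 and Igsf10, all nearly absent from lymph node TIMs. Tnc had 1, 4, 1, 0 and 0 counts in lymph node replicates 1 to 5 and 18.9, 34.0, 23.2, 34.6 and 31.3 CPM in primary tumor replicates 1 to 5, where edgeR fitted a log2 fold change of -10.76 (adjusted p = 8.17e-06). Mmp3 had 2, 4, 0, 0 and 0 counts in lymph nodes and 25.2, 47.1, 14.8, 94.3 and 52.9 CPM in primary tumors (fitted -11.49, adjusted p = 8.23e-05). Mmp10 had 0, 4, 1, 0 and 0 counts in lymph nodes and 14.5, 38.7, 16.2, 30.2 and 20.4 CPM in primary tumors (fitted -10.75, adjusted p = 5.63e-05). These fitted values depend on the prior count because so few reads were seen. Igsf10 had 0, 2, 1, 1 and 0 counts in lymph nodes and 6.22, 18.3, 5.40, 14.7 and 10.5 CPM in primary tumors (fitted -9.92, adjusted p = 9.42e-05). All 4 genes had at most 4 counts in a lymph node library, under the filter's minimum count of 10. They entered the test through the primary tumor alone and had to differ. Igsf10 shares exons with Gm38186 and Med12l on the other strand, as Tnc does with 8030451A03Rik. Tnc, Mmp3 and Mmp10 were called at an adjusted p under 0.05 in all 10 fits with a library left out, which for the same reason is no further result. Mmp3 was lost with voom and library weights (adjusted p = 0.17). BM IMs held 0 to 0.0102 CPM of Tnc and 0 counts of Mmp3. Tnc lies on chromosome 4, 63959785 to 64047015 and Mmp3 on chromosome 9, 7445822 to 7455975.

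Markers of fibroblasts and lung epithelium moved with these falls. The 10 fibroblast genes summed to 12.5 to 119 CPM in lymph node, 396 to 1184 CPM in primary tumor and 8.14 to 11.4 CPM in BM IM libraries. Of the 10, 6 (60.0%) were lower, beside 5.55% of all genes tested. Postn and Lum, 2 of the 6, had at most 3 counts in every lymph node library, entered the test through the primary tumor alone and had to differ. No lymph node library reached the lowest primary tumor sum. The defining gene Postn (periostin) had 0 counts in every lymph node library and 3.44, 9.25, 4.42, 5.83 and 1.56 CPM in primary tumors, at least 133-fold lower in lymph nodes against 3 counts a library. Lum (lumican) had 0, 2, 0, 0 and 0 counts in lymph nodes and 8.25, 20.3, 3.65, 10.4 and 6.91 CPM in primary tumors. Col1a1, the main collagen chain, fell from 29.5 ± 7.87 CPM to 0.867 ± 0.619 CPM (log2 fold change -5.08 ± 0.59, adjusted p = 0.000632). The part of fibroblasts in the fall of Tnc, Mmp3, Mmp10 and the other matrix genes was not tested.

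The 12 lung epithelium genes summed to 9.93 to 140.3 CPM in lymph node, 227 to 992 CPM in primary tumor and 2.83 to 4.33 CPM in BM IM libraries. Of the 12, 10 (83.3%) were lower, beside 5.55% of all genes tested, and 4 of them had at most 3 counts in every lymph node library. Sftpc, the surfactant protein of alveolar type II cells, had 0, 43, 8, 0 and 0 counts in lymph nodes and 140.1, 43.5, 125, 237 and 624 CPM in primary tumors (adjusted p = 0.000448 with edgeR, 0.146 with DESeq2). Scgb1a1, the club cell secretoglobin, fell from 87.7 ± 60.0 CPM to 0.240 ± 0.417 CPM (log2 fold change -8.49 ± 1.02, adjusted p = 0.000751). The 4 genes at this floor were Cldn18, Nkx2-1, Foxj1 and Scgb3a2, and they entered the test through the primary tumor alone. So did Sftpd, with a few counts in lymph node replicate 2 (0.0662 CPM) and 0 in the other lymph node libraries. Sftpc reached the filter's minimum count of 10 in lymph node replicate 2 only, so that the lymph node libraries by themselves would not have passed it. With a lymph node mean of 0.240 CPM and a larger SD, Scgb1a1 cannot have reached 10 counts in every lymph node library. It too would not have passed the filter through these libraries alone. With 10 counts required in every library, 0 genes of this list were lower. Cdh1 (E-cadherin), which dendritic cells also express, made up most of the lymph node sum, at 58.2, 50.3, 136, 59.9 and 8.14 CPM. With voom and library weights, neither Sftpc nor Scgb1a1 passed (adjusted p = 0.53 and 0.293). Other airway genes were likewise nearly absent. Bpifb1, a secreted protein of the airways, had 0, 2, 0, 0 and 0 counts in lymph nodes and 12.5, 13.4, 25.9, 68.5 and 9.96 CPM in primary tumors. Bpifa1, a related protein, stood at 0 to 0.0132 CPM in lymph nodes and 3.71 to 55.2 CPM in primary tumors, and Reg3g, an epithelial lectin against bacteria, at 0 to 0.0265 and 1.44 to 61.9 CPM. All 3 had at most 3 counts in every lymph node library and entered the test through the primary tumor alone, and they did not pass with voom and library weights (adjusted p = 0.279, 0.391 and 0.585). The chemokine Ccl11 (eotaxin), which stroma makes, had 0 counts in all lymph node libraries and was at least 23.8-fold lower there. Markers of squamous epithelium, the type of the tumor line, stayed at or under 6.78 CPM in sum in every library.

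**Figure D5:**
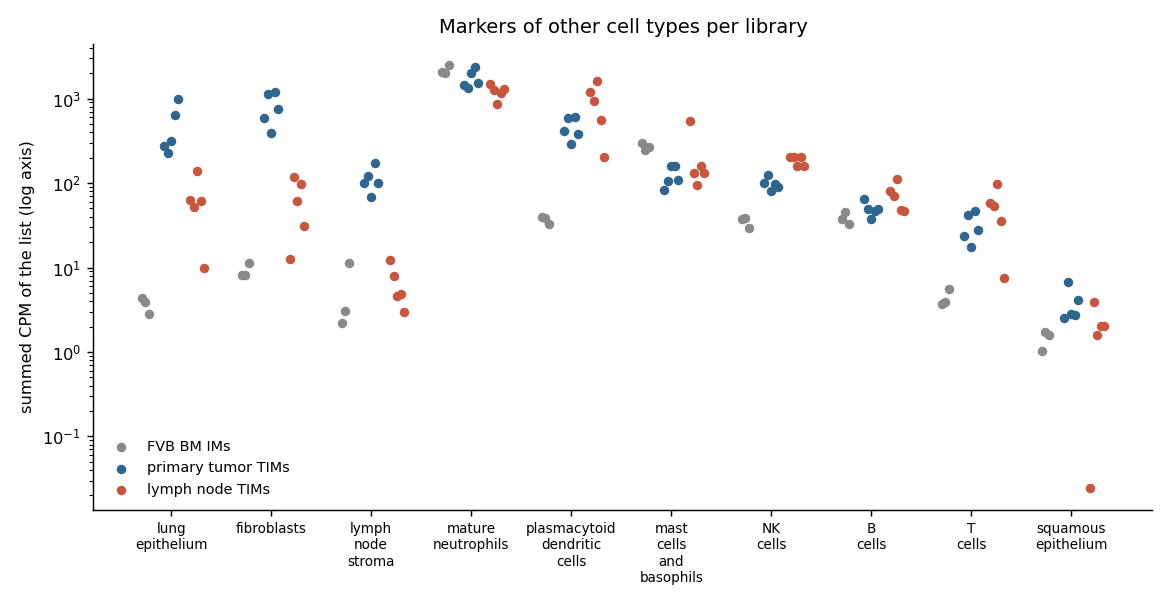
Each point is the summed CPM of a list of marker genes in 1 library, on a log axis, for FVB BM IMs, primary tumor TIMs and lymph node TIMs. The fibroblast sums (12.5 to 119 CPM in lymph node and 396 to 1184 CPM in primary tumor libraries), the lung epithelium sums and the lymph node stroma sums lie lower in all lymph node libraries than in any primary tumor library, and the B cell, T cell and plasmacytoid dendritic cell sums overlap.

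Markers of B and T lymphocytes, which fill a lymph node, overlapped between the groups. T cell genes summed to 7.60 to 98.4 CPM in lymph node and 17.6 to 46.7 CPM in primary tumor libraries, and B cell genes to 46.1 to 112 and 37.5 to 65.2 CPM. Genes of lymph node stroma had a lower summed level in lymph node TIMs, at 2.96 to 12.2 CPM against 68.1 to 173 CPM, and among the 4 tested Clu passed (2 genes without lymph node replicate 1). The defining B cell genes Pax5, Cr2 and Ebf1 and the lymph node chemokines Ccl21a and Ccl19 had at most 3 counts in each lymph node library. Klrk1 (NKG2D), which marks NK cells but is not limited to them, stood at 184, 172, 134, 186 and 154 CPM in lymph nodes and 90.8, 111, 69.8, 79.0 and 71.2 CPM in primary tumors and rose by 0.99 ± 0.15 (adjusted p = 0.00219). Ncr1, the defining NK receptor, had 0, 0, 0, 0 and 1 counts in lymph nodes and 0.259, 0.984, 0.233, 0.243 and 0.651 CPM in primary tumors, and it entered the test through the primary tumor alone. Plasmacytoid dendritic cell genes summed to 204 to 1622 CPM in lymph nodes and 289.9 to 612 CPM in primary tumors, with 0 of 10 called, and 7 called without lymph node replicate 5. Siglech, a defining marker, stood at 328, 245, 477, 131 and 37.1 CPM in lymph nodes and 103, 167, 64.7, 175 and 93.5 CPM in primary tumors. These cells make type I interferon, and their part in the interferon-responsive genes was not tested. Of 9 markers of mature neutrophils tested, 2 (22.2%) were lower and 0 higher, beside 5.55% and 6.15% of all genes tested. Only 1 was lower without primary tumor replicate 3 or 5 or lymph node replicate 3, 4 or 5 (summed levels 863 to 1498 and 1353 to 2371 CPM). S100a9, a calprotectin subunit, stood at 33.1, 31.7, 62.7, 328 and 35.9 CPM in primary tumors and 5.14, 17.9, 12.5, 2.16 and 5.50 CPM in lymph nodes (log2 fold change -3.51 ± 0.82, adjusted p = 0.019, but 0.276 with voom).

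The study selected 10 genes as candidates from these libraries. Of these, 1 was higher and 2 lower in lymph node TIMs, beside 6.15% and 5.55% of all genes tested, and 7 did not pass. Spon1 (spondin 1), a secreted matrix protein, stood at 41.5, 51.6, 49.9, 77.6 and 54.4 CPM in lymph nodes and 57.4, 70.8, 42.9, 61.9 and 35.3 CPM in primary tumors. The groups overlapped throughout, and the log2 fold change of 0.05 ± 0.21 did not pass (adjusted p = 0.924). Socs3, the feedback inhibitor of IL-6 family signals, stood at 736, 744, 870.3, 929 and 1043 CPM in lymph nodes and 1511, 1399, 1486, 1369.6 and 1435 CPM in primary tumors and fell by 0.73 ± 0.10 on the log2 scale (adjusted p = 0.00169). With Il1b above, it was no longer called with all 5 groups in 1 fit (adjusted p = 0.192). Gadd45b, a stress-induced gene, rose by 0.47 ± 0.12 (adjusted p = 0.0235), but not without primary tumor replicate 1, 2, 4 or 5 or with all 5 groups in 1 fit (adjusted p = 0.0502). The complement component Cfb and the adhesion molecule Icam1 had log2 fold changes of 0.53 ± 0.19 and -0.07 ± 0.11 (adjusted p = 0.0957 and 0.736). Sdcbp, Klf7, Csrnp1 and Ifitm2 had 0.32 ± 0.12, -0.04 ± 0.21, 0.09 ± 0.16 and -0.0028 ± 0.12, none of which passed.

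The rule for the largest changes at a mean log2 CPM above 3 also named genes with other roles. L1cam, an adhesion molecule of neurons and of some leukocytes, stood at 59.1, 28.9, 32.3, 24.8 and 39.5 CPM in lymph nodes and 17.2, 8.40, 6.94, 11.2 and 13.3 CPM in primary tumors and rose by 1.70 ± 0.29 (adjusted p = 0.00425). Slc12a2, the sodium-potassium-chloride cotransporter, rose from 8.22 ± 2.77 CPM to 23.8 ± 5.41 CPM (log2 fold change 1.54 ± 0.25, adjusted p = 0.00365). Fabp4, a carrier of fatty acids in macrophages and fat cells, rose by 1.43 ± 0.33 (adjusted p = 0.0191), but not without primary tumor replicate 5. Lilra5, an activating receptor of monocytes, rose from 53.8 ± 15.1 CPM to 144 ± 19.4 CPM (log2 fold change 1.43 ± 0.19, adjusted p = 0.00106). Hexim1, an inhibitor of the elongation factor P-TEFb, and Fam212a rose by 1.41 ± 0.31 and 1.37 ± 0.15 (adjusted p = 0.0143 and 0.000498), and Rpl3l by 1.29 ± 0.23 (adjusted p = 0.00545). For all 7 of these genes, as for Cd36, Eno3, Nr4a2, Spn and the other genes named by that rule, the lymph node libraries lay above every primary tumor library, beside 5.61% of all genes tested. The rule that named them asked for that separation, so that it is no further result. L1cam lies on chromosome X, 73853778 to 73896105.

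Lipid handling genes were called in both directions, and hypoxia targets only as higher in the edgeR fit of all libraries. Of 19 lipid handling genes, 3 (15.8%) were higher (Cd36, Lipa and Fabp4) and 2 (10.5%) lower (Gpnmb and Fabp5), beside 6.15% and 5.55% of all genes tested, and 1 was lower without primary tumor replicate 2, 3 or 4. Lipa, the lysosomal acid lipase, rose by 0.50 ± 0.09 (adjusted p = 0.00643), and Gpnmb, a glycoprotein of lipid-laden macrophages, fell from 23.3 ± 8.68 CPM to 0.635 ± 1.17 CPM (log2 fold change -5.18 ± 1.17, adjusted p = 0.0159, but 0.112 with voom). The lymph node SD of Gpnmb exceeded its mean, so that not every lymph node library can have reached the filter's minimum count of 10. With 10 counts required in every library, 1 lipid handling gene was lower. Pparg, a nuclear receptor of lipid metabolism that is not in this list, stood at 28.9, 30.3, 24.6, 27.3 and 24.2 CPM in lymph nodes and 13.7, 11.1, 8.89, 10.3 and 17.4 CPM in primary tumors and rose by 1.15 ± 0.18 (adjusted p = 0.00325). Of 21 hypoxia targets, 5 were higher and 0 lower, or 23.8%, beside 6.15% of all genes tested. They were the mitophagy receptors Bnip3l (0.74 ± 0.08, adjusted p = 0.000391) and Bnip3 (1.01 ± 0.18, adjusted p = 0.00541), the oxygen sensor Egln3 (0.99 ± 0.17, adjusted p = 0.00438), the collagen hydroxylase P4ha1 (0.42 ± 0.08, adjusted p = 0.00824) and Ero1l. The other 16 did not pass, among them P4ha2 (log2 fold change -2.31), which lay wholly below in lymph node libraries. Over the list, 15 fold changes were positive and 6 negative. Without lymph node replicate 1, and with DESeq2's unshrunken fold changes, 1 hypoxia target was lower. The checkpoint ligand Cd47, the signal against phagocytosis, rose from 642 ± 79.0 CPM to 1001 ± 83.7 CPM (log2 fold change 0.65 ± 0.10, adjusted p = 0.00291).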

How the data were processed

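RNA from the sorted cells was made into libraries without strand information by SMARTer amplification and Nextera XT. The authors deposited raw read counts for 23420 gene symbols in 21 libraries. They trimmed adapters with BBDuk, aligned reads to mm10 (GRCm38) with BBMap and counted them with featureCounts 1.5.2 of Subread, with SAMtools 1.8 in the submitters' processing notes. The settings of featureCounts are not given in the sources used here. Every count column had a sample, and 3910 symbols had 0 counts in all 21 libraries.

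The 5 lymph node and 5 primary tumor TIM libraries were compared in R 4.3.3 with the robust quasi-likelihood test of edgeR 4.0.16, with TMM factors and Benjamini-Hochberg adjustment over the 13488 genes that passed edgeR's filter (minimum count 10, minimum total 15). Standard errors were the absolute log2 fold change over the square root of F, an approximation. CPM used TMM factors over 21 libraries, and log2 CPM a prior count of 2. A fold change against libraries with 0 counts was bounded at 3 counts a library. Alternatives used limma 3.58.1 and DESeq2 1.42.0, tables Python 3.11.15 with pandas 2.3.3 and numpy 2.4.6, exact tests scipy 1.17.1, and plots matplotlib 3.10.9, and the scripts were tested on simulated data. Gene positions came from GENCODE vM21, matched by symbol, and promoters from RefSeq.

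The members and lists were chosen with earlier results of these data known. Genes were named as the 12 with the largest change in each direction among those with a mean log2 CPM above 3 and no overlap (DEGs first, then an adjusted p under 0.05), as up to 4 members of each list with the smallest p, and as the study's candidates, the sort markers, Ccr2 and the sex list. Igsf10, Cdh1, Siglech, Plaur, Jun, Fosb, Isg15, Irgm2, Tnf and Nr4a1, and the list members given without values, were named after their values were seen. Samples with the same replicate number did not deviate together (correlations from -0.154 to 0.0549), so no block was used. Alternatives were DESeq2's size factors, 2 other filters on low counts, DESeq2, all 5 groups in 1 fit, the replicate number as a block, leaving out each library, and limma's voom with library weights, which was chosen after seeing the data. The symbols for Ly6G, Plet1 and Spi1 were not found in the table and these genes were not analysed here.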

Additional observations from a re-analysis of the deposited data

Results flagged for a closer look

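In 14 of 224 groups of 5 libraries, 1 library lay apart from the other 4 by Dixon's test, where chance alone flags about 1 in 20 groups. Lymph node replicate 1 had the fewest genes with at least 10 counts (11047). Primary tumor replicate 3 had a summed level of matrix and proteolysis genes of 18132 CPM and a Nr4a2 level of 62.7 CPM, in each case the highest of its group. Lymph node replicate 4 had the highest Nfkbiz level of its group (240.2 CPM), and lymph node replicate 5 the highest Tgfbi level (1965 CPM). Lymph node replicate 3 lay apart for Mmp14 (47.9 CPM), Sdcbp (1141 CPM) and Tnf (34.9 CPM), primary tumor replicate 4 for Ccl3 (114.2 CPM) and primary tumor replicate 5 for Gpnmb (8.71 CPM). For the other 4, 1 lymph node library held a few counts and the others 0. These were Bpifb1 (0.0265 CPM), Lum (0.0265 CPM) and Sftpd (0.0662 CPM) in replicate 2 and Ncr1 (0.0119 CPM) in replicate 5.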

How the results depend on the processing

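The count of DEGs (4, all lower) depended most on the tool and the filter. It was 12 (1 higher, 11 lower) without a filter on low counts, 0 with 10 counts required in every library, 269 (35 and 234) and 483 (48 and 435) with DESeq2's shrunken and unshrunken fold changes, 27 (4 and 23) with all 5 groups in 1 fit, 0 with voom and library weights, and 0 to 2 (all lower) when a library was left out. At an adjusted p under 0.05, the total of 1578 was 2386 and 3074 with DESeq2's shrunken and unshrunken fold changes and 889 to 2256 when a library was left out. The 829 higher genes were 411 to 1031 and the 749 lower genes 478 to 1225 when a library was left out, and the lower genes were 1250 and 1861 with DESeq2, 1359 with all 5 groups and 1162 with voom. Higher genes outnumbered lower genes (52.5% of the calls) here and with 10 counts required in every library (56.0%), and lower genes outnumbered higher genes in every other alternative. The share of higher genes was then 46.3% with DESeq2's size factors, 42.8% without a filter, 47.6% and 39.5% with DESeq2's shrunken and unshrunken fold changes, 38.1% with all 5 groups in 1 fit, 49.8% with voom, 46.0% with the replicate block and 44.0% to 47.7% when a library was left out. Without lymph node replicate 1, 787 of the 829 and 730 of the 749 genes kept their calls.

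The lists together held 163 called genes, and 110 to 197 when a library was left out. With 10 counts required in every library, the 10 lower lung epithelium genes were 0 and the 6 lower fibroblast genes 1, because genes at 0 in lymph node TIMs were then not tested, and with voom the lung epithelium genes were 3. When a library was left out, fibroblast genes ranged from 4 to 8, MHC class I from 3 to 9, type I interferon response from 5 to 13 and matrix genes from 7 to 12, and DESeq2 gave 13 type I interferon response genes with shrunken and with unshrunken fold changes. The log2 fold change of Ms4a3, a granulocyte precursor gene, was 3.73, and between -7.65 and 4.62 when a library was left out, with the lowest value without lymph node replicate 1 (adjusted p = 0.0463 from edgeR). The cause of these changes was not tested except where named.

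The replicate number as a block, which marks no pairing in these libraries, left 533 genes (245 higher, 288 lower) and 0 DEGs (0 lower). With this block the lists held 84 called genes, MHC class I 1 and matrix genes 5, and no lymph node library correlated best with its own number. Genes under a few counts per library were beyond what this depth can resolve.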

Other observations

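Several mitosis genes were lower in lymph node TIMs. The 20 mitosis genes summed to 59.2 to 77.9 CPM in lymph node, 80.3 to 229.8 CPM in primary tumor and 2639 to 3116 CPM in BM IM libraries. In lymph node TIMs 6 of 20 (30.0%) were lower and 0 higher, beside 5.55% and 6.15% of all genes tested. The lower genes were 4 to 8 when a library was left out, 11 with all 5 groups in 1 fit, and 3 with the replicate block or with 10 counts required in every library. Cenpf, a kinetochore protein of late cell cycle, fell from 2.56 ± 1.90 CPM to 0.0739 ± 0.0377 CPM (log2 fold change -5.08 ± 0.84, adjusted p = 0.00373 from edgeR). In lymph node libraries 3 counts amounted to 0.0356 to 0.0397 CPM, so that Cenpf was near the floor there and would not have passed the filter through these libraries alone. Ube2c, which directs the destruction of mitotic cyclins, fell from 9.34 ± 4.77 CPM to 1.03 ± 0.699 CPM (adjusted p = 0.00643). Of 20 S phase genes, 2 (10.0%) were higher and 0 lower, beside 6.15% and 5.55% of all genes tested. Their summed levels were 407.6 to 475.7 CPM in lymph node and 400.5 to 540.5 CPM in primary tumor libraries, and 3 were lower without lymph node replicate 1.

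Among macrophage genes, Folr2, the folate receptor of tissue-resident macrophages, had the largest rise of the list, from 0.844 ± 0.531 CPM to 5.86 ± 2.45 CPM (log2 fold change 2.80 ± 0.58, adjusted p = 0.00991 from edgeR). It was the 1 of 12 tissue macrophage genes that passed (8.33%), near the 6.15% higher over all genes tested. The 38 cytosolic ribosomal protein genes held 0 called genes. The respiratory chain list held 6 higher genes of 30, but between 0 and 16 when a library was left out, with 16 without lymph node replicate 4.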
